A study of Mus musculus with 4 samples.

Results

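The 10 genes described here encode the parts of IL-33 and IL-1 family signalling that the nerve files name: the ligands Il33, Il1b, Il1a and Il18, the antagonist Il1rn, the receptors Il1rl1, Il1r1 and Il18r1, the decoy receptor Il1r2 and the shared co-receptor Il1rap. They were found by row name among 22716 distinct gene rows of 4 count files. The 3 DPI file lists 20548 genes with all 10 members, the uninjured file 17907 with 8, and the neonatal files 18764 and 18564 with 7 each. Il1a and Il1rn have a row at 3 DPI only and Il18r1 has one in the adult files only, so no value exists for them elsewhere.

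Single cells of sciatic nerve from Wildtype CD1 mice were profiled by Drop-seq, which captures cells in droplets and counts each transcript once by its unique molecular identifier (UMI). The 3 DPI library came from the distal nerve segment of adults, 3 days after a piece of the nerve was resected. The uninjured library came from intact adult nerve, and both adult libraries were cleaned with myelin removal beads. Neonatal nerve was profiled by FACS sorting at P3 to P4 and by the beads at P2 to P3, and every group is 1 library, so no value below has a replicate check and none is tested.

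IL-33 is kept in the nucleus of stromal and barrier cells and is released when cells are damaged. It binds ST2, the product of Il1rl1, which pairs with the co-receptor encoded by Il1rap and is carried by mast cells, group 2 innate lymphoid cells and regulatory T cells. IL-1α and IL-1β bind IL1R1, which uses the same co-receptor, while the antagonist IL-1RN occupies IL1R1 without signalling, IL1R2 binds the ligand without a signalling domain, and IL-18 acts through IL18R1, largely on T and NK cells. In injured nerve IL-1β is known as an early cytokine of the degenerating distal stump.

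The start regions of Il33, Il1rl1 and Il1b are printed because the results turn on which cells carried these genes, and because Il33 and Il1rl1 each have more than 1 annotated start. Each run is 300 bases of RefSeq sequence on GRCm38.p6, 5′ to 3′ on the gene's strand, from 250 bases before the start to 50 after it. Capitals mark matches to the searched motifs.
Il33, distal start (chr19:29924863-29925162, plus strand): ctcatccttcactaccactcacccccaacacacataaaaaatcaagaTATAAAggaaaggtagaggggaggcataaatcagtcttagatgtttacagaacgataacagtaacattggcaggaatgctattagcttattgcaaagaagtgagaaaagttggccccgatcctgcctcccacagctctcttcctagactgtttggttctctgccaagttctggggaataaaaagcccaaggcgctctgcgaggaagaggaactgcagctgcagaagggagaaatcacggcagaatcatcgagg
Il33, proximal start (chr19:29945540-29945839, plus strand): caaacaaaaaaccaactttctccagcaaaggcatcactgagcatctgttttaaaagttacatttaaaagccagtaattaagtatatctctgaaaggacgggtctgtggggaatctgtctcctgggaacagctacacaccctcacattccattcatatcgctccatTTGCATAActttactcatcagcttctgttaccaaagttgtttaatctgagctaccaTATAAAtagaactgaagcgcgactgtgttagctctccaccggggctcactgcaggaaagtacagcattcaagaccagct
Il1rl1, distal start (chr1:40429320-40429619, plus strand): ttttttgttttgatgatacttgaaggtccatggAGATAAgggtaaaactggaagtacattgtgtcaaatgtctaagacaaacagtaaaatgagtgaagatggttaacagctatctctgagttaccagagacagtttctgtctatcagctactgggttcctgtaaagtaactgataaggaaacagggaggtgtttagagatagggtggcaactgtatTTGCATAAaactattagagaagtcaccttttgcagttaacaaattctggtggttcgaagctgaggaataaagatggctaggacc
Il1rl1, proximal start (chr1:40439379-40439678, plus strand): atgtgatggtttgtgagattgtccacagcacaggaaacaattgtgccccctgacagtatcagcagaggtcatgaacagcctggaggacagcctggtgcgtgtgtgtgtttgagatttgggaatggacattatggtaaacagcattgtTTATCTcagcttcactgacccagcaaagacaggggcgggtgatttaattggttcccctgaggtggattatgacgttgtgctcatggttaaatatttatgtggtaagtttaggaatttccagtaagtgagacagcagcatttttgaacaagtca
Il1b (chr2:129371090-129371389, minus strand): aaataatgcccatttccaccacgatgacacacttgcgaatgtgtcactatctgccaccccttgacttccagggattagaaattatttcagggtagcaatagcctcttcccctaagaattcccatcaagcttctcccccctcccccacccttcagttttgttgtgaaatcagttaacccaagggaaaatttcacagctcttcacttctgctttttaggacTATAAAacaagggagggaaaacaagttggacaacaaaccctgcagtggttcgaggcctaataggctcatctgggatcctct

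The 5 motifs, searched on both strands, were TATAAA, TTGCNNAA for C/EBP factors, AGATAA for GATA factors, TGANTCA for AP-1 and the NF-kB consensus. The proximal Il33 start had TATAAA 29 bases and a C/EBP match 85 bases before it, and the distal start had TATAAA 203 bases before it. Both Il1rl1 starts held a GATA match, at 217 and 103 bases before the start, and the distal one also a C/EBP match 34 bases before it. Il1b had TATAAA 31 bases before its start, and no matches overlapped. Over 32851 promoters of the same length, 13.6% held TATAAA, 10.8% the C/EBP motif, 11.2% the GATA motif, 7.81% the AP-1 motif and 8.46% the NF-kB consensus. Among the 17 start regions of the members, those motifs were found in 6, 3, 2, 2 and 1. A match is a description of letters, and the UMIs are counted per gene near the 3′ end, so they do not show which start was used or whether an Il1rl1 transcript encoded membrane-bound or soluble ST2.

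The members lie in few places of the genome. Il1r2 (chr1:40084692-40125230), Il1r1 (chr1:40222480-40316201), Il1rl1 (chr1:40404864-40465418) and Il18r1 (chr1:40465552-40500854) follow each other on the plus strand within 416 kb. Il1a (chr2:129299609-129310186) and Il1b (chr2:129364569-129371164) are both on the minus strand, and together span 71.6 kb. Il1rn (chr2:24336860-24351491), Il33 (chr19:29925113-29960718), Il18 (chr9:50554700-50581841) and Il1rap (chr16:26581509-26730128) stand apart, all on the plus strand. The annotated starts are 20.7 kb apart in Il33 and 10.1 kb apart in Il1rl1.

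The files hold 2500 barcodes at 3 DPI, 2000 uninjured, 2500 neonatal FACS and 6200 neonatal beads, with 8123103, 4513814, 5110171 and 7634799 UMIs in all. After removal of thin, mitochondrial-rich, red-cell and doublet-like barcodes, 2162, 1837, 2190 and 5419 cells were kept and named by fixed markers. At 3 DPI there were 1182 Pdgfra-positive mesenchymal-like cells (276 endoneurial-like, 435 epineurial-like, 323 differentiating-like and 148 in a cluster led by the division genes Top2a and Mki67), 247 endothelial-like, 78 VSM/pericyte-like, 142 Schwann-like and 513 immune-like cells (399 macrophage/monocyte-like, 75 T/NK-like and 39 neutrophil-like). The uninjured library held 422 endoneurial-like, 376 epineurial-like, 67 perineurial-like, 418 endothelial-like, 183 VSM/pericyte-like and 355 Schwann-like cells. Its 16 immune-like cells were too few to report as a class. Without doublet removal there were 38, so that number depended on the filter. Neonatal immune-like cells numbered 79 (FACS) and 38 (beads). Libraries shared 8 cell barcodes over all pairs. The perineurial name was weak in the neonatal libraries, where 2 and 3 of its 5 markers were found in at least 5% of cells.

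Levels are given in CPM, the member's UMIs per 1000000 UMIs summed over a class, with the exact Poisson 95% interval in parentheses. Shares are the percentage of cells with at least 1 UMI, and ratios of CPM carry exact conditional 95% intervals. All of these intervals cover counting error only. Since a cell with more UMIs shows more genes, shares were also taken at 500 UMIs per cell. Each was read beside the share of a class taken as background, which was not shown to lack the transcript.

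Il33 was a mesenchymal transcript in every library. In the uninjured nerve, endoneurial-like cells held 874 CPM (818 to 932), perineurial-like cells 656 CPM (526 to 808) and epineurial-like cells 156 CPM (131 to 185). Endothelial-like cells held 22.1 CPM, Schwann-like cells 17.0 CPM and VSM/pericyte-like cells 3.97 CPM. The order endoneurial, perineurial, epineurial and endothelial was set by intervals that did not meet between neighbours, and below the endothelial-like cells neighbours could not be told apart. Endoneurial-like cells alone carried 78.1% of the library's Il33 UMIs.

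**Figure D1:**
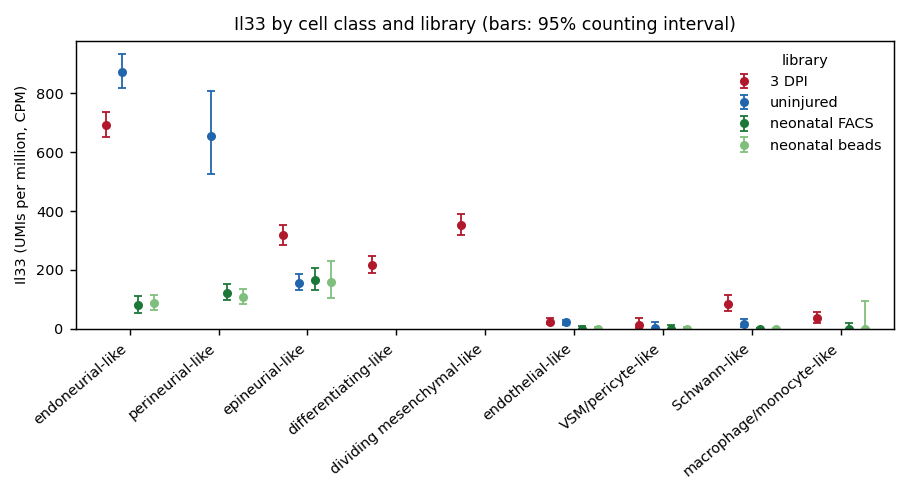
Il33 level in each cell class of the 4 libraries, in CPM, with exact Poisson 95% intervals. Endoneurial-like cells stood highest in both adult libraries (693 CPM at 3 DPI and 874 CPM uninjured) and at 80.5 and 86.2 CPM in the neonatal libraries.

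At 3 DPI the endoneurial-like cells were again highest, at 693 CPM (652 to 736), and 66.7% of them had an Il33 UMI against 71.1% in uninjured nerve. The cells of the dividing mesenchymal cluster held 353 CPM (320 to 388) and epineurial-like cells 317 CPM (285 to 351), a pair that could not be told apart by counting error. Differentiating-like cells held 217 CPM (191 to 246). Thinned to 500 UMIs per cell, the shares were 25.2% in endoneurial-like, 13.8% in epineurial-like, 12.5% in dividing and 9.49% in differentiating-like cells, against 1.8% in immune-like cells, which stand for free RNA here.

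The 3 DPI and uninjured levels differed in opposite directions in the endoneurial-like and epineurial-like classes. The ratio of 3 DPI to uninjured CPM was 0.794 (0.726 to 0.868) in endoneurial-like cells. It was 2.03 (1.66 to 2.49) in epineurial-like cells, whose share at 500 UMIs was 7.61% uninjured and 13.8% at 3 DPI. With finer clustering the epineurial-like ratio was 1.39, and with each cell named from its own markers 1.32, so its size depended on where the class was drawn. Finer clustering left 92 uninjured epineurial-like cells in place of 376, but 434 in place of 435 at 3 DPI. Over all mesenchymal-like cells the ratio was 0.748 (0.695 to 0.804), but the class was made up differently in each library. Endoneurial-like cells were 422 of 865 uninjured and 276 of 1182 at 3 DPI. The 67 perineurial-like cells were found only in uninjured nerve, and the 323 differentiating-like and 148 dividing cells only at 3 DPI.

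Schwann-like cells held few Il33 UMIs in either adult library. They had 38 UMIs at 3 DPI, 84.2 CPM (59.6 to 116), and 7 UMIs uninjured, 17.0 CPM (6.82 to 35.0), a ratio of 4.96 (2.19 to 13.2). At 500 UMIs per cell, 3.06% of Schwann-like cells had Il33 at 3 DPI and 0.822% did in uninjured nerve. The 3 DPI share lay above the 1.8% of immune-like cells, and the part of free endoneurial RNA in it was not tested. Endothelial-like cells, at 25.1 CPM, had 1.27% and were at or under that background, with a ratio to uninjured of 1.13 (0.65 to 1.98).

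Neonatal Il33 was lower than in the uninjured adult in endoneurial-like cells. The endoneurial-like level was 80.5 CPM (55.4 to 113) in the FACS library and 86.2 CPM (62.7 to 116) in the bead library, 0.0922 (0.0631 to 0.13) and 0.0987 (0.0712 to 0.134) of the uninjured adult level. Epineurial-like cells held 167 and 159 CPM, ratios of 1.07 (0.801 to 1.41) and 1.02 (0.649 to 1.55) to the adult, which did not differ beyond counting error. With each cell named from its own markers these ratios were 0.728 and 0.553, so no direction is given for that class. Perineurial-like cells held 123 and 109 CPM, and Schwann-like cells 0.917 and 1.25 CPM. No Il33 UMI was found in neonatal VSM/pericyte-like cells, which allows up to 10.6 and 6.12 CPM, or in immune-like cells, which allows up to 16.6 and 75.7 CPM.

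Il1rl1, which encodes the IL-33 receptor ST2, was carried by different cells in injured and uninjured nerve. At 3 DPI 322 UMIs were in kept cells, and 195 of them (60.6%) were in the 148 cells of the dividing mesenchymal cluster, at 166 CPM (144 to 191). Their share was 29.1% (21.9 to 37.1), and 6.38% at 500 UMIs per cell, against 0.295% in Schwann-like cells. Differentiating-like cells held 63.8 CPM (49.9 to 80.3), but 1 cell had 40 of their 72 UMIs. Endoneurial-like cells, the main holders of Il33, had 4.63 CPM (1.86 to 9.55) of its receptor and epineurial-like cells 4.36 CPM (1.41 to 10.2), neither distinguishable from the 6.64 CPM of Schwann-like cells.

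**Figure D2:**
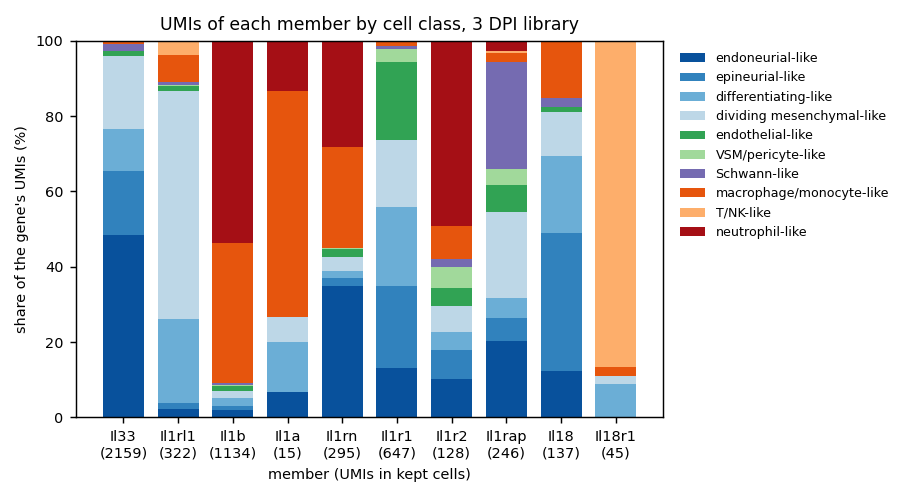
Share of each member's kept UMIs at 3 DPI that lay in each cell class, as a percentage of the member's total. Il33 was mainly in endoneurial-like cells (48.5%), Il1rl1 in the dividing mesenchymal cluster (60.6%), Il1b in neutrophil-like (53.6%) and macrophage/monocyte-like cells (37.1%), and Il18r1 in T/NK-like cells (86.7%).

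Among immune-like cells at 3 DPI, T/NK-like cells held 12 Il1rl1 UMIs, 186 CPM (96.3 to 326), in 9.33% of 75 cells. That class also had UMIs of all 4 listed regulatory T cell markers and all 6 listed group 2 innate lymphoid cell markers, and which kind of T/NK-like cell carried Il1rl1 was not tested. Macrophage/monocyte-like cells held 45.4 CPM (28.8 to 68.1) and neutrophil-like cells had no UMI. Of the 35 Il1rl1 UMIs of the immune-like class, 12 lay in barcodes with mast cell markers, described below, and how these 12 divided between T/NK-like and macrophage/monocyte-like cells was not tabulated. The T/NK-like and dividing mesenchymal levels did not differ beyond counting error.

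In uninjured nerve, all 865 mesenchymal-like cells together had 1 Il1rl1 UMI, 0.482 CPM (0.0122 to 2.69). The 1182 mesenchymal-like cells of 3 DPI nerve had 279 UMIs and 56.2 CPM (49.8 to 63.2), a ratio of 117 whose interval ran from 20.8 to 4621. The dividing cluster had no uninjured or neonatal counterpart, so its level has nothing to be set against. Neonatal mesenchymal-like cells had 1 UMI in the FACS library and none in the bead library.

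Barcodes with at least 3 of 7 mast cell markers, a rule chosen after the data were seen, held 15 of the 27 Il1rl1 UMIs of the whole uninjured file, or 55.6% (Clopper-Pearson 35.3 to 74.5). In the neonatal bead file they held 11 of 12, or 91.7% (61.5 to 99.8), and these 11 UMIs were all of the Il1rl1 of the immune-like class (278 CPM). At 3 DPI they held 27 of 347, or 7.78%, while the dividing cluster held 56.2%. In the FACS file they held 1 of 14. Within such barcodes the level was 533 CPM (351 to 776) at 3 DPI, 426 CPM (238 to 702) uninjured and 771 CPM (385 to 1379) in neonatal beads, with intervals that overlapped. The doublet filter removed 12 of the 13 uninjured mast-marker barcodes, so the kept uninjured cells hardly show them.

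**Figure D3:**
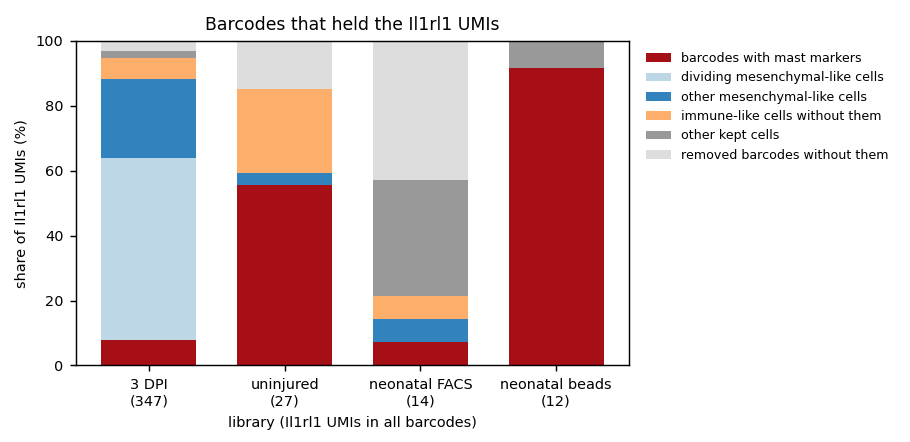
Share of all Il1rl1 UMIs of each file by carrier, over barcodes of any filter status. Mast-marker barcodes held 7.78% at 3 DPI, 55.6% uninjured, 7.14% in neonatal FACS and 91.7% in neonatal beads, and the dividing mesenchymal cluster held 56.2% at 3 DPI.

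Within the dividing cluster, 43 cells had an Il1rl1 UMI and 105 did not. In the cells with a UMI of Mki67 or Top2a, Il1rl1 stood at 145 CPM (123 to 170; 34 of 127 cells), and in those without at 350 CPM (253 to 472; 9 of 21). Cells with Il1rl1 were deeper, with a median of 8522 UMIs against 4394, and 79.1% against 88.6% had a UMI of Mki67 or Top2a. On the CPM scale, which divides by depth, the neutrophil-attracting chemokine Cxcl1 was at 1465 (1358 to 1577) in cells with Il1rl1 and 416 (369 to 467) in those without. Its relative Cxcl2 was at 324 (275 to 379) and 87.8 (67.2 to 113), and Cxcl5 at 211 (172 to 256) and 57.6 (41.1 to 78.4). Ptgs2, the inducible prostaglandin synthase, was at 190 (153 to 233) and 76.3 (57.2 to 99.8).

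Other transcripts did not follow that pattern. The monocyte chemokines Ccl2 (1262 and 1457 CPM) and Ccl7 (518 and 525 CPM) were close or lower, Il6 was at 25.1 against 86.4 CPM, and Il33 itself at 290 against 396 CPM. The EGF receptor ligand Areg was at 96.1 against 25.9 CPM, with 4 cells of each kind holding it. The summed mesenchymal marker list was at 19380 CPM with Il1rl1 and 35000 CPM without, while the immune list was at 142 and 102 CPM, compared with 6291 CPM in immune-like cells. Pdgfra was found in 28 of the 43 cells and 56 of the 105. Of the 43 cells, 28 also had an Il33 UMI. The cells were split by the gene itself within 1 library, so these are descriptions.

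Il1b, the secreted IL-1 ligand of myeloid cells, lay mainly in few cells at 3 DPI. The 39 neutrophil-like cells, with a median of 444 UMIs each, held 608 of 1134 kept UMIs, 28110 CPM (25920 to 30430), and all 39 had it. A single cell held 83 of these UMIs. The level was 16960 CPM without doublet removal and 12390 CPM with each cell named from its own markers. In the 43 barcodes with at least 3 of 9 neutrophil markers, described below, it was 4593 CPM (4197 to 5016). Macrophage/monocyte-like cells held 421 UMIs, 831 CPM (754 to 914), with 20.1% of 399 cells positive. Among them the cluster led by Gpnmb and Arg1 held 1053 CPM and the one led by Cd74 and Ccr2 held 584 CPM.

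Every other 3 DPI class held 11.3 to 20.4 CPM of Il1b, and neighbours in that range could not be told apart. Schwann-like cells, taken as the background class, were at 13.3 CPM (4.88 to 28.9), with 1.07% of cells positive at 500 UMIs, and all mesenchymal-like cells together at 16.1 CPM and 0.665%. In those classes there were 32.5 to 80.0 Il1b UMIs for each 100 UMIs of the neutrophil transcripts S100a8 and S100a9, while neutrophil-like cells had 64.4 and macrophage/monocyte-like cells 780. Those ratios rest on few UMIs, 4 of Il1b against 5 of both transcripts in VSM/pericyte-like cells, and the part of free RNA in the non-immune values was not tested. The 186 barcodes under 200 genes held a further 167 Il1b UMIs, 1518 CPM, together with 203 S100a8 and 197 S100a9 UMIs.

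In uninjured nerve 35 Il1b UMIs were in kept cells, and 25 of them lay in 1 cell with neutrophil markers. A further 20 UMIs lay in barcodes removed as doublets. Endothelial-like cells held 8 UMIs, 6.09 CPM (2.63 to 12), and endoneurial-like, epineurial-like, perineurial-like, VSM/pericyte-like and Schwann-like cells held none, which allows up to 2.81 CPM in the first and 22.4 CPM in the perineurial-like cells. Neonatal nerve had 1 UMI (FACS) and 3 UMIs (beads), all in immune-like cells. The 4 neonatal bead barcodes with at least 3 of 9 neutrophil markers, again a rule chosen after the data were seen, held 1043 S100a8 and 829 S100a9 UMIs and no Il1b, against 4593 CPM (4197 to 5016) in the 43 such barcodes of 3 DPI nerve.

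Il1a, the second IL-1 ligand, had 15 kept UMIs at 3 DPI. Macrophage/monocyte-like cells held 9 of them, 17.8 CPM (8.12 to 33.7), neutrophil-like cells 2 and mesenchymal-like cells 4. The counts are too low to order the classes beyond that.

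Il1rn, which encodes the IL-1 receptor antagonist, had 295 kept UMIs at 3 DPI and was shared between myeloid cells and the endoneurial-like class. Neutrophil-like cells held 3837 CPM (3056 to 4756), with 53.9% of cells positive. Their level was 2270 CPM without doublet removal and 1775 CPM with cells named one by one from their own markers. The 43 barcodes with at least 3 of 9 neutrophil markers held 558 CPM (426 to 718). Macrophage/monocyte-like cells held 156 CPM (124 to 194). Endoneurial-like cells held 103 UMIs, 68.2 CPM (55.7 to 82.7), the most of any class in number. Their share was 15.9%, and 2.64% at 500 UMIs per cell, against 0 of 142 Schwann-like cells at full depth, which allows a share of up to 2.11%.

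The other mesenchymal-like classes had far less Il1rn than the endoneurial-like cells. The dividing cluster held 9.38 CPM, differentiating-like cells 5.32 CPM and epineurial-like cells 5.23 CPM (1.92 to 11.4). Endoneurial-like cells held 103 Il1rn and 23 Il1b UMIs, whereas neutrophil-like cells held 83 and 608. Of the 276 endoneurial-like cells, 30 had both Il33 and Il1rn, and Il1rn was found in 16.3% of those with Il33 and 15.2% of those without it. With each cell named from its own markers the endoneurial-like level was 51.1 CPM.

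Il1r1, the signalling IL-1 receptor, was broad among stromal and vascular classes and higher at 3 DPI in each of those that both adult libraries held. At 3 DPI it stood at 123 CPM (103 to 145) in epineurial-like, 120 CPM (100 to 142) in differentiating-like, 119 CPM (99.7 to 141) in endothelial-like, 98.9 CPM (81.7 to 119) in dividing mesenchymal and 96.6 CPM (60.5 to 146) in VSM/pericyte-like cells. None of these 5 could be told from its neighbour. Endoneurial-like cells were lower at 56.3 CPM (45.0 to 69.6). Macrophage/monocyte-like cells held 15.8 CPM and Schwann-like cells 13.3 CPM. Neutrophil-like cells, which held most Il1b, had no Il1r1 UMI, and at their depth 3 counts would be 139 CPM.

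Uninjured levels of Il1r1 were lower. Epineurial-like cells held 50.5 CPM (36.7 to 67.8), endothelial-like cells 50.3 CPM (38.9 to 64.0), VSM/pericyte-like cells 39.7 CPM (19.1 to 73.1) and endoneurial-like cells 22.5 CPM (14.4 to 33.4). Perineurial-like cells had 0 UMIs, which allows a level of up to 22.4 CPM. The ratio of 3 DPI to uninjured was 2.43 (1.72 to 3.49) in epineurial-like, 2.37 (1.75 to 3.23) in endothelial-like, 2.43 (1.10 to 5.75) in VSM/pericyte-like and 2.50 (1.58 to 4.12) in endoneurial-like cells. In Schwann-like cells it was 1.83 (0.39 to 11.3) on 6 and 3 UMIs.

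At 500 UMIs per cell, Il1r1 was found in 5.71% of epineurial-like cells at 3 DPI and 2.72% uninjured, and in 5.26% and 2.02% of endothelial-like cells, against 0.587% of 3 DPI immune-like cells. Neonatal epineurial-like cells were at 46.8 CPM (FACS), a ratio of 0.925 (0.533 to 1.57) to the uninjured adult, and at 41.3 CPM (beads), and VSM/pericyte-like cells were at 45.8 and 34.7 CPM. Endothelial-like cells were lower in the neonate, at 10.7 CPM (2.92 to 27.5) and 16.8 CPM (9.76 to 26.8).

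Il1r2, the decoy receptor, had its highest level in neutrophil-like cells at 3 DPI, 2912 CPM (2238 to 3726), with 46.2% of cells positive. Without doublet removal it was 1751 CPM, and with cells named from their own markers 1367 CPM. The 43 barcodes with at least 3 of 9 neutrophil markers held 586 CPM (450 to 749). VSM/pericyte-like cells held 30.7 CPM (12.3 to 63.3) on 7 UMIs and macrophage/monocyte-like cells 21.7 CPM (10.8 to 38.9). In uninjured nerve, 36 of the 43 kept UMIs lay in epineurial-like cells, at 41.4 CPM (29.0 to 57.2), with 5.85% of 376 cells positive.

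Epineurial-like Il1r2 was lower at 3 DPI, at 8.71 CPM (4.18 to 16.0), a ratio of 0.211 (0.0932 to 0.433). With finer clustering that ratio was 0.0745, but it then set 92 uninjured cells, a part of the class, against 434 at 3 DPI. The share at 500 UMIs per cell was 2.38% uninjured and 0.609% at 3 DPI, the latter close to the 0.49% of Schwann-like cells. Endoneurial-like cells had 13 UMIs at 3 DPI and 1 uninjured, a ratio of 9.19 (1.38 to 391), with a share at 500 UMIs of 0.285% that lay under the Schwann-like background. Neonatal Il1r2 had 2 UMIs (FACS) and 5 UMIs (beads) in all kept cells.

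Il1rap, the co-receptor that ST2 and IL1R1 share, was highest in Schwann-like cells among the large classes. In uninjured nerve, Schwann-like cells other than the myelinating ones held 200 CPM (154 to 257) and myelinating Schwann-like cells 68.1 CPM (27.4 to 140). At 3 DPI Schwann-like cells held 155 CPM (121 to 196), with 31.7% of cells positive and 8.66% at 500 UMIs. Neutrophil-like cells had 324 CPM (130 to 667) on 7 UMIs, not distinguishable from the Schwann-like level. The 43 barcodes with at least 3 of 9 neutrophil markers held 74.4 CPM (32.1 to 147).

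The Schwann-like level of Il1rap did not differ between injured and uninjured nerve beyond counting error, with a ratio of 0.927 (0.655 to 1.31). In neonatal nerve it was lower, at 86.2 CPM (74.3 to 99.5) in the FACS and 77.8 CPM (69.4 to 86.9) in the bead library, ratios of 0.515 (0.389 to 0.689) and 0.465 to the uninjured adult. The same Schwann-like cells had almost none of the receptors that use it: at 3 DPI, 6 Il1r1 UMIs and 3 Il1rl1 UMIs beside 70 of Il1rap.

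Outside Schwann-like cells, Il1rap was higher at 3 DPI in several classes. Endoneurial-like cells held 33.1 CPM (24.6 to 43.6) against 9.36 CPM (4.49 to 17.2) uninjured, a ratio of 3.54 (1.77 to 7.82). Endothelial-like cells held 16.1 against 6.09 CPM, a ratio of 2.64 (1.09 to 7.03), and VSM/pericyte-like cells 43.9 CPM against 1 uninjured UMI, a ratio of 11.1 (1.57 to 479). In epineurial-like cells the ratio was 0.632 (0.296 to 1.33). In the dividing cluster, at 47.7 CPM (36.0 to 62.0), 13 of the 43 cells with Il1rl1 and 19 of the 105 without it had an Il1rap UMI.

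Il18 was highest in epineurial-like and macrophage-like cells at 3 DPI, and no class led in every library. At 3 DPI it stood at 43.5 CPM (32.3 to 57.4) in epineurial-like, 41.5 CPM (25.7 to 63.4) in macrophage/monocyte-like, 24.8 CPM in differentiating-like and 11.3 CPM in endoneurial-like cells, and VSM/pericyte-like cells had no UMI. In uninjured nerve epineurial-like cells held 42.5 CPM (29.9 to 58.6), Schwann-like cells other than the myelinating ones 19.4 CPM (7.11 to 42.2) and endoneurial-like cells 18.7 CPM (11.4 to 28.9). The epineurial-like ratio of 3 DPI to uninjured was 1.02 (0.657 to 1.61), but it was 1.86 with at least 500 genes per cell and 0.301 with finer clustering, so no direction is given. In the neonatal FACS library 17 of 23 UMIs were in immune-like cells, at 94.1 CPM (54.8 to 151), and epineurial-like cells held 2 UMIs, 0.0957 (0.0112 to 0.371) of the uninjured level. In the neonatal bead library all 9 UMIs were in Schwann-like cells, at 2.24 CPM (1.03 to 4.26), and epineurial-like and immune-like cells had none.

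Il18r1, the receptor chain that binds IL-18, was a T/NK-like transcript at 3 DPI. There 39 of 45 UMIs lay in these 75 cells, at 606 CPM (431 to 828), with 26.7% of cells positive (17.1 to 38.1), and 16.7% at 500 UMIs per cell. With at least 500 genes per cell the level was 382 CPM. Schwann-like cells had none, and the epineurial-like and macrophage-like holders of Il18 had 0 and 1 Il18r1 UMIs. In uninjured nerve, where too few immune-like cells were kept to form a class, 4 of 6 kept UMIs lay in epineurial-like cells, at 4.59 CPM (1.25 to 11.8). Of the 13 Il18r1 UMIs of the whole uninjured file, 7 lay in barcodes removed as doublets.

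Set side by side, most members that passed a fold of 2 between 3 DPI and uninjured nerve, with at least 10 UMIs over both, were higher at 3 DPI. In endoneurial-like cells 4 of 6 members with enough UMIs were higher (Il1b, Il1r1, Il1r2, Il1rap) and 0 lower, where 19.1% of 11152 genes were higher and 10% lower. In epineurial-like cells 3 of 6 were higher (Il1b, Il1r1, Il33) and 1 lower (Il1r2), against 11.3% and 4.74% of genes. In all mesenchymal-like cells 3 of 7 were higher (Il1b, Il1r1, Il1rl1) and 1 lower (Il1r2), against 15.7% and 8.48%. Il1b in these classes, and Il1r2 in endoneurial-like cells, had 0 or 1 uninjured UMIs and entered only through 3 DPI, where their levels lay within the Schwann-like intervals. Il1rl1 in all mesenchymal-like cells, with 279 UMIs at 3 DPI and 1 uninjured, also entered only through 3 DPI. With at least 30 UMIs, 2 of 4 members remained higher in endoneurial-like cells (Il1r1, Il1rap) and 2 of 5 in epineurial-like cells (Il1r1, Il33), where Il1r2 remained lower.

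Vascular and Schwann-like classes allowed fewer comparisons. In endothelial-like cells 3 of 4 members were higher (Il1b, Il1r1, Il1rap) and 0 lower, against 10.2% and 7.49% of genes, though their Il1b (12.5 CPM at 3 DPI) lay within the Schwann-like interval as well. In VSM/pericyte-like cells 2 of 2 were higher (Il1r1, Il1rap), against 16.1% higher and 13.5% lower. Endothelial-like Il1b and Il1rap had 8 uninjured UMIs each. VSM/pericyte-like Il1rap had 10 UMIs at 3 DPI and 1 uninjured, and entered only through 3 DPI. In Schwann-like cells 1 of 2 was higher (Il33, on 7 uninjured UMIs) and 0 lower, against 19.7% and 15.7%. With the myelinating cells left out of the uninjured class, these shares were 19.6% and 15.6% and Il33 was again the 1 higher. The median log2 ratio of the members was 1.47 in endoneurial-like cells beside 0.23 for all genes, and 0.53 beside 0.14 in epineurial-like cells. With at least 30 UMIs over both groups these medians were 0.50 beside 0.23 over 4 members and 0.04 beside 0.12 over 5, so the epineurial-like median then lay under that of all genes. The members are few, they were chosen with results known, and the shares are given as background with nothing called particular to the family.

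**Figure D4:**
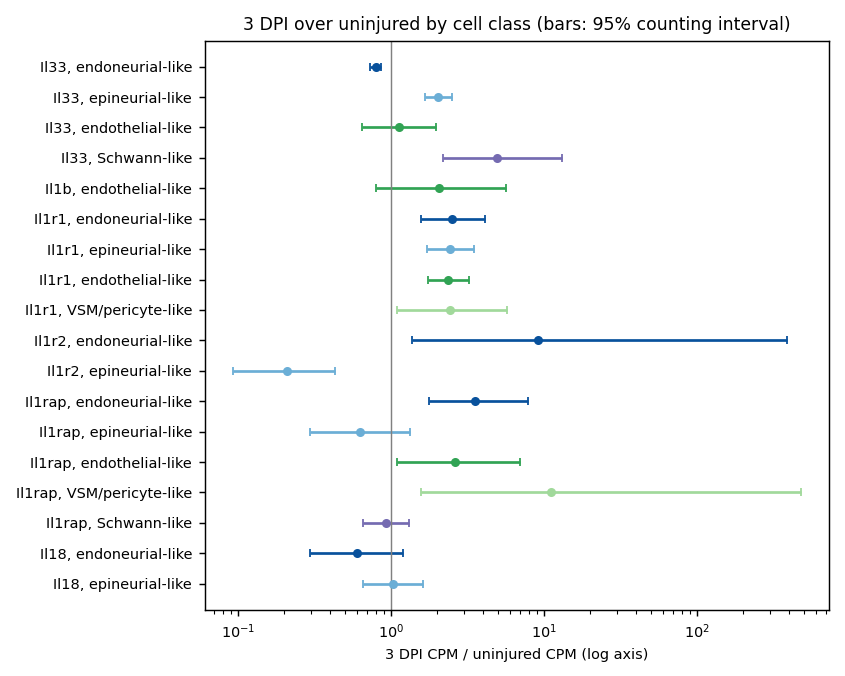
Ratio of 3 DPI to uninjured CPM for each member in each class with enough UMIs, on a log axis with exact 95% counting intervals. Il1r1 lay between 2.37 and 2.50 in epineurial-like, endothelial-like, VSM/pericyte-like and endoneurial-like cells, while Il33 was at 0.794 in endoneurial-like and 2.03 in epineurial-like cells.

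The other genes of the pathway were taken from lists of its known parts. Of 10 other ligands and antagonists, Il1f9, which encodes IL-36γ, had 26 UMIs in neutrophil-like cells at 3 DPI (1202 CPM, 785 to 1760). Il18bp, the secreted IL-18 inhibitor, was at 34.9 CPM (24.8 to 47.7) in endothelial-like cells at 3 DPI and 16.8 CPM (10.5 to 25.4) uninjured, a ratio of 2.08 (1.21 to 3.69). Among 5 other receptors, Il18rap, the second IL-18 receptor chain, was at 370 CPM (160 to 729) in neutrophil-like cells on 8 UMIs and at 186 CPM (96.3 to 326) in T/NK-like cells on 12 UMIs. The neutrophil-like cells had no Il18r1 UMI. Sigirr, an inhibitory receptor of the family, was mainly endothelial-like, at 46.5 CPM at 3 DPI and 64.7 CPM uninjured. Il1rl2, the IL-36 receptor, was past the fold lower in epineurial-like cells on 5 and 11 UMIs, with a ratio of 0.345 (0.0939 to 1.08).

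Most of the shared signalling parts, like most of all genes, were within the fold between injured and uninjured nerve. Of 14 adaptors and kinases, in endoneurial-like cells 1 was past the fold higher (Traf6) and 1 lower (Irak2), where 19.1% and 10% of all genes were. In epineurial-like cells 1 of 13 was higher (Ikbkg) and 0 lower (all genes, 11.3% and 4.74%). In all mesenchymal-like cells 0 of 14 passed it either way (15.7% and 8.48%). The endothelial-like class had 1 higher (Tab2) and 1 lower (Map3k7), against 10.2% and 7.49% of all genes. The VSM/pericyte-like class had 4 of 11 higher (Irak1, Irak4, Tab2, Traf6) and 0 lower, against 16.1% and 13.5%. The Schwann-like class had 1 of 10 higher (Tollip) and 1 lower (Chuk), against 19.7% and 15.7%. Without the uninjured myelinating cells, the Schwann-like class had 2 of 9 higher (Map3k7, Tollip) and 2 lower (Irak4, Myd88), against 19.6% and 15.6%. Several of these ratios had intervals that included 1. They were Traf6 in endoneurial-like and VSM/pericyte-like cells, Ikbkg in epineurial-like, Irak4 in VSM/pericyte-like and Chuk in Schwann-like cells. Without the myelinating cells, those of Tollip, Irak4 and Myd88 did so too. Myd88, the adaptor of the signalling receptors of the family, was at 33.8 CPM in endoneurial-like cells at 3 DPI and 60.9 CPM uninjured. The ratio was 0.555 (0.377 to 0.813).

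Genes that process IL-1β and IL-18 differed in the classes that held them. The sensor Nlrp3 was at 1710 CPM in neutrophil-like and 128 CPM in macrophage/monocyte-like cells at 3 DPI, and at 4.63 CPM in endoneurial-like cells. The adaptor Pycard was at 209 CPM (171 to 253) in macrophage/monocyte-like cells. Casp4, the caspase of the noncanonical inflammasome, was at 201 CPM (179 to 224) in endoneurial-like cells at 3 DPI and 83.3 CPM uninjured, a ratio of 2.41 (1.90 to 3.08). Among the adult classes its highest level was in uninjured Schwann-like cells other than the myelinating ones, 258 CPM (205 to 322), against 115 CPM (86.0 to 151) in 3 DPI Schwann-like cells, a ratio of 0.446 (0.308 to 0.640). Of this list, 1 of 5 was past the fold higher in endoneurial-like cells (Casp4), 1 of 5 in epineurial-like cells (Pycard) and 0 of 7 in mesenchymal-like cells. It was 1 of 6 in endothelial-like cells (Aim2), 4 of 4 in VSM/pericyte-like cells (Casp4, Casp8, Gsdmd, Pycard) and 1 of 4 in Schwann-like cells (Casp8). In each class 0 were lower. In VSM/pericyte-like cells, where 16.1% of all genes were higher, these counts rest on few UMIs. There Casp4 (13 and 6 UMIs) and Gsdmd (11 and 6) had intervals that included 1. The interval of Pycard (12 and 4) began at 1.004, and Casp8 had 10 and 2 UMIs. Against uninjured Schwann-like cells without the myelinating ones, 2 of 4 were lower (Casp4, Pycard) and 1 higher (Casp8). That Pycard ratio, on 4 and 6 UMIs, had an interval that included 1. Schwann-like Casp8 had 10 UMIs at 3 DPI and 0 uninjured, and entered only through 3 DPI. These counts stand beside the shares of all genes given above, and 1 of 5 is close to the 19.1% of genes that were higher in endoneurial-like cells.

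NF-kB genes differed both ways. In endoneurial-like cells 3 of 11 were past the fold higher (Nfkb2, Nfkbie, Rel) and 4 lower (Nfkbia, Nfkbib, Nfkbiz, Zc3h12a), against 19.1% and 10% of all genes. There the ratios of Nfkbie (16 and 5 UMIs), Rel (9 and 2) and Zc3h12a (4 and 7) had intervals that included 1. The median log2 ratio of the list was 0.30 beside 0.23 for all genes. The inhibitor Nfkbia was at 153 CPM in endoneurial-like cells at 3 DPI against 363 CPM uninjured, a ratio of 0.421 (0.356 to 0.497), and in Schwann-like cells the ratio was 0.297 (0.231 to 0.379). In epineurial-like cells 0 of 10 passed the fold (all genes, 11.3% higher and 4.74% lower). In all mesenchymal-like cells 4 of 11 were higher and 0 lower (15.7% and 8.48%). In endothelial-like cells 0 of 11 were higher and 1 lower (Nfkbia), against 10.2% and 7.49%. VSM/pericyte-like cells had 1 of 6 higher and 3 lower (all genes, 16.1% and 13.5%). Schwann-like cells had 0 of 8 higher and 2 lower (Nfkbia, Nfkbiz), against 19.7% and 15.7%. In neutrophil-like cells Nfkbia stood at 13130 CPM (11650 to 14750).

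Among 12 cytokines and enzymes that IL-1 is known to induce, Ccl2 was higher and Cxcl1 lower at 3 DPI in endoneurial-like cells. There 6 of 9 were past the fold higher (Ccl2, Cxcl2, Cxcl5, Lif, Mmp3, Ptgs2) and 2 lower (Cxcl1, Il6), where 19.1% and 10% of all genes were, with a median log2 ratio of 2.16 beside 0.23 for all genes. Ccl2 was at 2537 CPM in endoneurial-like cells at 3 DPI and 179 CPM uninjured, a ratio of 14.2 (12.3 to 16.5). Cxcl1 was at 410 and 1990 CPM, a ratio of 0.206 (0.188 to 0.226), and its ratio was under 1 in Schwann-like (0.315), VSM/pericyte-like (0.256), endothelial-like (0.58) and epineurial-like (0.631) cells as well. In epineurial-like cells 3 of 8 were higher and 1 lower (all genes, 11.3% and 4.74%), and in all mesenchymal-like cells 5 of 9 and 1 (15.7% and 8.48%). In endothelial-like cells 2 of 6 were higher and 0 lower (10.2% and 7.49%), in VSM/pericyte-like cells 2 of 4 and 1 (16.1% and 13.5%), and in Schwann-like cells 3 of 4 and 1 (19.7% and 15.7%). Mmp3 in endoneurial-like cells, and Cxcl2 in epineurial-like and Schwann-like cells, had 0 uninjured UMIs and entered only through 3 DPI. Cxcl5 and Ptgs2 had 5 uninjured UMIs each in endoneurial-like cells. The list was not tested.

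Of the cytokines known from cells that carry ST2, few UMIs were found. In T/NK-like cells at 3 DPI Il13 had 14 UMIs (217 CPM, 119 to 365), Csf2 had 10 (155 CPM, 74.5 to 286) and Areg 15 (233 CPM, 130 to 384). Areg also had 64 UMIs in the dividing mesenchymal cluster, 54.5 CPM (42.0 to 69.7), 46 in 4 cells with Il1rl1 and 18 in 4 without. Over all mesenchymal-like cells it had 76 UMIs at 3 DPI against 0 uninjured. Taking 3 counts as the uninjured floor, that is at least 10.6-fold higher for the class as a whole. That figure rests mainly on the dividing cluster, which had no uninjured counterpart, so it is not a difference between like cells.

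The genes most like a member were sought over 30 class by library groups of at least 50 cells, by the correlation of log2(CPM + 10) over 12287 genes. Those groups share libraries and cell preparations, so r is a description. Il33 was followed most closely by Pdpn (r = 0.93), Dcn (0.911), Pdgfra (0.903), Rbp4 (0.896) and Nupr1 (0.893). For Il1b, with the neutrophil-like group too small to enter, they were Cd300lf and Dpep2 (both 0.937), H2-Aa (0.935), Hal (0.934) and Apoc2 (0.928). Il1rl1, which was above a few CPM in few groups, was followed by Gm26104 (0.845), Gm26180 (0.839), Glipr1 (0.835), Gm23731 (0.827) and Mmp9 (0.826). Gm26104 and Gm26180 were highest in T/NK-like cells at 3 DPI, each at 46.6 CPM, which is the level of 3 counts there. Il18 was followed by Tmem106a (0.863), AI607873 (0.858), Sirpa (0.798), Pla2g15 (0.785) and Abcd2 (0.755).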

How the data were processed

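Enzymatically dissociated nerve cells were captured by Drop-seq. Per the labels the authors aligned to mm10 (submitters' processing notes), with an aligner version not given in the sources used. The authors deposited raw counts, 1 matrix of UMIs per gene and barcode for each library, with no normalization, and no other column of values was left unused. Gene intervals and start regions come from RefSeq on GRCm38.p6.

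Barcodes with under 200 genes, over 10% mitochondrial or over 5% hemoglobin UMIs, and the top 5% of scrublet scores per library (scanpy 1.11.5) were removed. Cells were normalized with scran 1.30.0 and clustered in Seurat 5.3.0 (R 4.3.3) at resolution 0.4, the neonatal libraries together, with the members, the pathway genes, mitochondrial and hemoglobin genes kept out of the variable genes. A cluster was named "X-like" from listed markers where at least 3 of them were found in 5% of its cells, and the score that decides between names was set after the clusters were seen. Classes of under 20 cells were not reported. Counts were summed per class, and intervals came from scipy 1.17.1 (Python 3.11.15, pandas 2.3.3, numpy 2.4.6). With 1 library per group no test was run. Library depth was 4513814 to 8123103 UMIs, and the median kept cell had 996 to 1797.5 UMIs, so a class of few cells shows few members. A level of 0 allows 3 counts. The scripts were tested on simulated data.

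Each member was computed in every class and library, and the text gives the leading classes and the background class. From each pathway list the counts past the fold and the 2 to 4 genes of highest summed CPM were taken. Genes past the fold were named with the counts, and genes named outside these rules were chosen after their values were seen. Likeness used genes of at least 20 CPM in 1 group. The members, lists and tests were chosen with earlier results of these data known. Alternatives were 500 genes per cell, 5% mitochondrial UMIs, no doublet removal, library size normalization, resolution 0.8, neonatal libraries clustered alone, classes from each cell's own markers, the mean of cells' CPM, 500 UMIs per cell, a fold of 3 and at least 30 UMIs.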

Additional observations from a re-analysis of the deposited data

Results flagged for a closer look

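Il33 differed in opposite directions between cell classes under the same contrast. The ratio of 3 DPI to uninjured CPM was 0.794 in endoneurial-like cells, 2.03 in epineurial-like cells and 4.96 in Schwann-like cells, and the counting interval of each left out 1. Il1r2 did so too, at 0.211 in epineurial-like cells and 9.19 in endoneurial-like cells, the latter on 1 uninjured UMI. With 1 library per group the differences between classes were not tested.

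Il1b was also found where no comparison looked. The 186 barcodes of the 3 DPI file with under 200 genes held it at 1518 CPM, where the 50 such barcodes of the uninjured file held 0 UMIs. Barcodes removed as doublets held 20 of the 55 Il1b UMIs of the uninjured file and 22 of the 1347 at 3 DPI. Il1rl1 had 19 UMIs in uninjured barcodes that were removed as doublets, of 27 in the whole file.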

How the results depend on the processing

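Over 51 results (15 levels, 18 ratios, 12 counts of members and 6 shares), no value past the fold of 2 changed direction under the alternatives run. Ratios that stood near 1, those of epineurial-like Il18, Schwann-like Il1rap and neonatal epineurial-like Il33, fell on the other side of 1 under 1 or more. No paired analysis was possible because each group is 1 library and no result comes from a test. Naming each cell from its own markers gave Il33 of 3 DPI endoneurial-like cells at 644 CPM, their Il1rn at 51.1 CPM, neutrophil-like Il1b, Il1rn and Il1r2 at 12390, 1775 and 1367 CPM, and Il33 ratios to uninjured of 0.721 (endoneurial-like, 3 DPI), 1.32 (epineurial-like, 3 DPI), 0.728 and 0.553 (epineurial-like, neonatal FACS and beads). Without doublet removal the 3 neutrophil-like levels were 16960, 2270 and 1751 CPM. Without the cell with most UMIs, an alternative added after the data were seen, Il1b was at 25580 CPM in neutrophil-like and 741 CPM in macrophage/monocyte-like cells. With at least 500 genes per cell, macrophage/monocyte-like Il1b was 975 CPM, epineurial-like Il1r1 164 CPM and Il18 77.7 CPM, T/NK-like Il18r1 382 CPM, and the epineurial-like Il18 ratio 1.86. Dividing-cluster Il1rl1 was 202 CPM with 5% mitochondrial UMIs and 203 CPM with library size normalization. At resolution 0.8 the epineurial-like ratios were 1.39 (Il33), 0.0745 (Il1r2), 0.301 (Il18) and 0.729 (Il33, neonatal FACS). All of these used an uninjured class of 92 cells in place of 376, while the 3 DPI class held 434. As means of cells' CPM, macrophage/monocyte-like Il1b was 919, epineurial-like Il18 60.0 and the neonatal FACS epineurial-like Il33 ratio 0.649. At 500 UMIs per cell the shares were 25.2% and 31.8% (Il33, 3 DPI and uninjured endoneurial-like), 6.38% (Il1rl1, dividing cluster), 5.71% (Il1r1, epineurial-like) and 8.66% (Il1rap, Schwann-like).

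The counts of members past the fold are small and moved easily. Higher in endoneurial-like cells became 2 with at least 30 UMIs. Higher in epineurial-like cells became 1 with 500 genes, at resolution 0.8 and at a fold of 3, and lower became 2 at resolution 0.8. Lower in mesenchymal-like cells became 0 without doublet removal and at a fold of 3. Higher in endothelial-like cells became 0 at a fold of 3 and 1 with 30 UMIs, in VSM/pericyte-like cells 5 with cells named one by one, 1 at a fold of 3 and 1 with 30 UMIs, and in Schwann-like cells 2 with cells named one by one. The neutrophil-like class had no value with at least 500 genes, nor the dividing cluster with cells named one by one. The cause of these shifts was not tested. Depth limits Il1a, Il18r1, Il1r2 and Il18, which rest on 15, 45, 128 and 137 kept UMIs at 3 DPI.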
